A study of Mus musculus with 6 samples.

Results

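The genes described here build the gate through which secretory proteins enter the endoplasmic reticulum (ER), watch over protein folding inside it, and return misfolded proteins to the cytosol for destruction. They were taken by name: 42 mouse gene symbols covering the translocon, signal peptidase, the sensors of the unfolded protein response and ER-associated degradation (ERAD), of which 41 have a row among the 21033 symbols of the count table. The signal recognition particle gene Srp54a has no row under that symbol. Counts came from primary synovial fibroblasts, the mesenchymal cells of the joint lining, taken from ankle joints of hTNFtg mice (carriers of a human TNF transgene) and grown for 3 passages. Each group had 3 libraries and every library carried the transgene: in the control group the cells received DMSO, the vehicle, and in the other group 10 µM compound 33, both for 48 h. The series title links compound 33 to Hyou1, an ER chaperone, so the comparison asks what the compound does to transcripts of activated fibroblasts, here those of the ER import and disposal machinery. The labels give neither the animals' age nor the source of each replicate, and the spread that p-values rest on may thus be technical.

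Secretory proteins carry a signal sequence that the signal recognition particle binds as it leaves the ribosome. The particle docks at its receptor, the chain is threaded through the Sec61 channel with help from the TRAP complex, and signal peptidase cuts the signal off. Inside, lectins such as calnexin and calreticulin hold unfinished glycoproteins, and mannosidase-like EDEM proteins mark those that fail for export through the Sel1l and Syvn1 (HRD1) complex to the ATPase VCP. When unfolded protein builds up, the sensors ATF6, IRE1 (gene Ern1) and PERK (gene Eif2ak3) raise transcription of this same machinery, partly through short promoter elements. Synovial fibroblasts secrete matrix, hyaluronan and lubricating glycoproteins, which makes this route a main traffic line of the cell.

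The elements that carry this control were looked for in the promoter windows of RefSeq (build GRCm38.p6, 250 bases before to 50 after a start site), which hold 34 of the 42 listed genes. The ER stress response element (ERSE, CCAAT and CCACG with 9 free bases between) is bound by ATF6 together with NF-Y, ERSE-II (ATTGG and CCACG with 1 free base between) is its compact relative, and UPRE (TGACGTGG) is a site for XBP1 and ATF6. Both strands were searched for exact letters. All of these hold the core CCACG or its complement, so a match of any of them is also a match of the core. The sequences are shown because the factors released by the sensors bind such elements, with the element in capitals, its own strand 5′ to 3′ and flanks in lower case.
Calr ERSE (chr8:84847070-84847098, plus strand): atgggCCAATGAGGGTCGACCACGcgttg
Canx ERSE (chr11:50325795-50325823, minus strand): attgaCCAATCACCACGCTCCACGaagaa
Creld2 ERSE (chr15:88819515-88819543, minus strand): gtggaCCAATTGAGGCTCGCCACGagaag
Syvn1 ERSE (chr19:6046527-6046555, plus strand): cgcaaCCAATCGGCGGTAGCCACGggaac
Derl3 ERSE (chr10:75893237-75893265, minus strand): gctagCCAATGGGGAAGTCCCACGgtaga
Herpud1 ERSE-II (chr8:94386368-94386396, plus strand): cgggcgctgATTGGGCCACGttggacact
Vcp UPRE (chr4:43000603-43000632, minus strand): ctgcggccaatTGACGTGGcgttactaggc
The Calr element lies 162 to 144 bases before the start, that of Derl3 156 to 138 bases before the start, that of Canx 145 to 127 bases before the start and that of Creld2 126 to 108 bases before the start. The element of Syvn1 lies closer, 44 to 26 bases before the start. For Herpud1 it lies 52 to 42 bases before the start, and for Vcp 114 to 107 bases before the start. ERSE was found in the windows of 5 of the 34 genes (14.7%) and in 0.119% of all 32851 windows, ERSE-II in 1 gene and 0.0365% of windows, and UPRE in 1 gene and 0.676% of windows. The core CCACG alone stood in 32.8% of all windows. Counted by gene, it was held by 22 of the 34 listed genes (64.7%) and by 53.9% of the tested genes with a window. By gene, ERSE was held by 0.175%, ERSE-II by 0.100% and UPRE by 1.09% of tested genes. A match describes letters in a window, not a bound site.

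The cells carried high levels of fibroblast transcripts. Levels are given as CPM, counts per 1000000 reads of each library's size as scaled for the test, so they are not exact shares of reads. The kit reads a transcript near its 3′ end whatever its length, so CPM were not divided by length. The 8 fibroblast markers summed to 11868 to 13462 CPM with DMSO and 10615 to 12611 CPM with compound 33. Of the 32 markers of other cells, 8 had no read in any library, among them the T-cell genes Cd3e and Cd3d and the keratins Krt5 and Krt14. The 5 endothelial markers, with Pecam1 at 0, summed to 2.09 to 3.71 CPM with DMSO and 4.63 to 9.54 CPM with compound 33. These low sums do not overlap, and Tek had 1 to 4 reads per DMSO library and 4 to 17 per compound 33 library. The 8 macrophage markers, mostly Lyz2 and Cd14, summed to 63.1 to 136 CPM and 52.7 to 104 CPM, and the 4 mural markers, mostly Cspg4, to 18.0 to 25.5 CPM and 28.6 to 37.3 CPM. The 3 cartilage markers, mostly Sox9 and with Acan at 0, summed to 59.4 to 148 CPM and 99.6 to 119 CPM. Of these markers Cspg4 had a log2 fold change of 0.70 (unadjusted p = 0.0217) and the fibroblast marker Thy1 one of -0.65 (unadjusted p = 0.0128), both with groups that did not overlap and neither past the adjusted threshold in edgeR. The part of these cells in any value here was not tested. Libraries held 1594052 to 2897207 reads, so that 1 read was worth 0.348 to 0.611 CPM. Scatter inside the groups exceeded sampling noise: for pairs of libraries the chi-square statistic was 4.62 to 19.1 times its degrees of freedom. In bulk RNA, fewer cells of a type and less RNA per cell cannot be told apart.

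No gene of the import, sensing or disposal machinery changed past the test. Of the 41 genes 40 had enough reads to be tested; Derl3, a derlin of secretory cells, had 0 to 5 reads per library and was not. In edgeR's quasi-likelihood test 0 of the 40 passed at an adjusted p under 0.05, where 0.0296% of the 10124 genes tested passed (0.00988% higher and 0.0198% lower with compound 33). Under an unadjusted 0.05 also lay 0 of 40, against 6.87% of all genes (3.64% higher and 3.23% lower). The smallest unadjusted p was 0.0587, for Srp19. DESeq2 and limma-voom likewise gave 0 members at either threshold. The authors' deposited table is a DESeq2 comparison of the same libraries, so it adds no separate evidence. It holds an adjusted p for 40 of these genes. There 0 lie under an adjusted or unadjusted 0.05, and the smallest adjusted p is 0.920.

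The size of change that these libraries leave room for can be read from the intervals. Estimates of the log2 fold change, compound 33 over DMSO, ran from -0.50 for Srp19 to 0.31 for Vcp, 18 positive and 22 negative, with a median of -0.020 against -0.0091 over all tested genes. For 37 of the 40 genes the 95% interval lay wholly within a 2-fold change either way. The exceptions were Srp19, Spcs3 and Eif2ak3, whose intervals reached just past a 2-fold lower level. For 9 of the 40 the interval lay within a 1.5-fold change either way, while 18 intervals reached past a 1.5-fold lower and 15 past a 1.5-fold higher level. The summed level of the machinery as a whole was close between groups. The 41 genes summed to 9036, 9261 and 9709 CPM with DMSO and to 9206, 9229 and 9741 CPM with compound 33, and these ranges overlap.

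**Figure D1:**
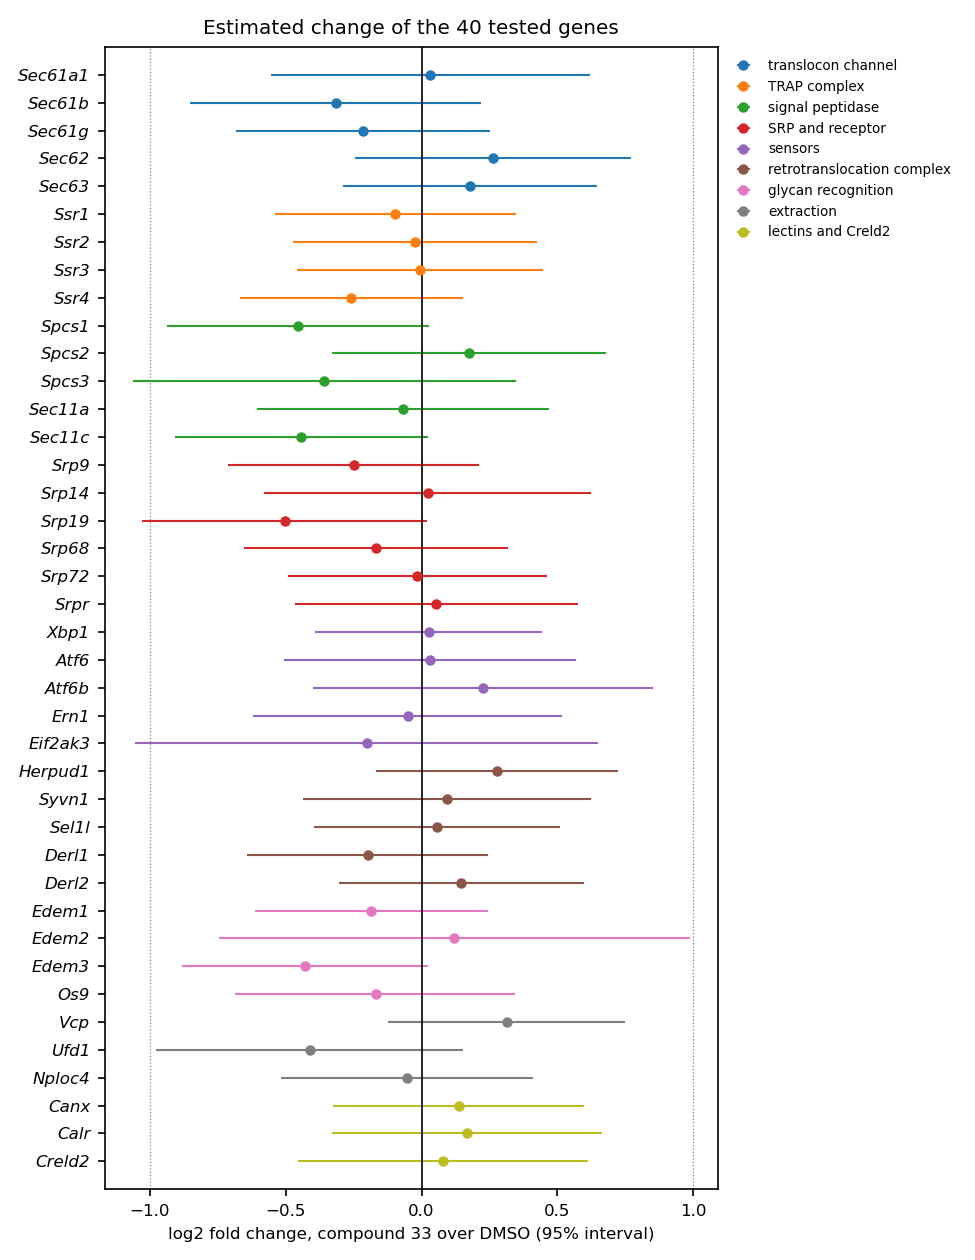
Log2 fold change of each tested gene, compound 33 over DMSO, on the horizontal axis, with genes in rows coloured by role; points are estimates of edgeR and bars are 95% intervals. Every interval crosses 0, estimates lie between -0.50 and 0.31, and dotted lines mark a 2-fold change.

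**Figure D2:**
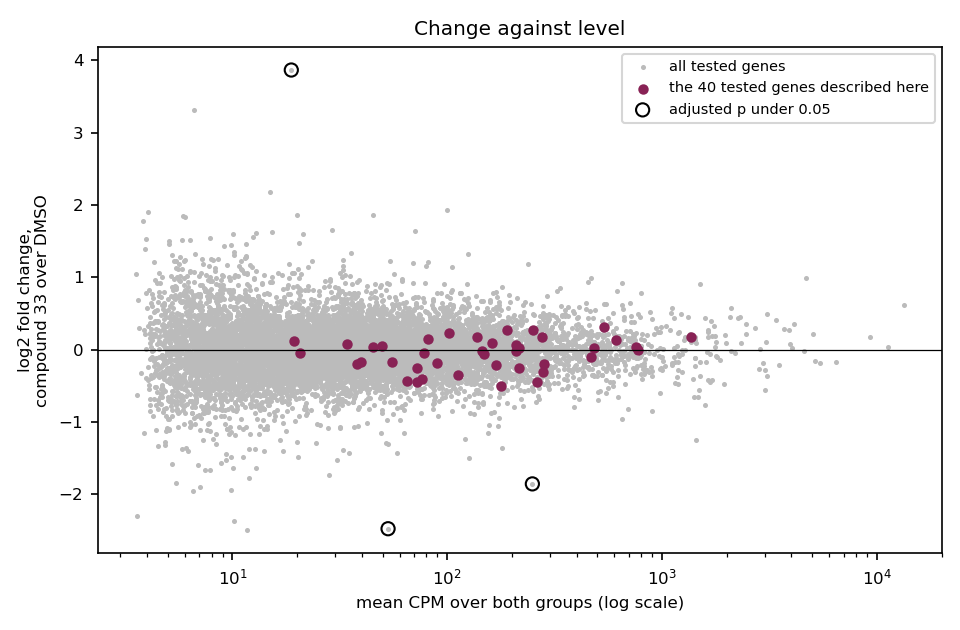
Log2 fold change of every tested gene (vertical) against its mean CPM over both groups (horizontal, log scale). The 40 genes described here (dark points) lie in the middle of the cloud, and none is among the 3 circled genes with an adjusted p under 0.05.

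The share of genes whose groups did not overlap was near that of all genes. In 5 of the 40 (12.5%) every compound 33 library lay on the same side of every DMSO library, against 13.4% of all tested genes. Higher with compound 33 was Vcp alone (1 of 40, against 6.64% of all genes), and lower were Ssr4, Sec11c, Edem1 and Edem3 (4 of 40, against 6.73%). Leaving out any library raised the count. It was 11, 10 and 7 without DMSO replicate 1, 2 or 3. Without compound 33 replicate 1, 2 or 3 it was 9, 7 and 8. The share over all genes rose too, to 27.0%, 22.3%, 22.5%, 21.9%, 21.2% and 23.5% in the same order. A group of 2 libraries overlaps less readily, so these counts cannot show an influence of single libraries.

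At the docking step the signal recognition particle and its receptor showed no shared direction, with 2 estimates positive and 4 negative among 6 tested genes and a median of -0.092. Srp14, which with Srp9 forms the domain that slows translation, was the most abundant of them, at 279, 509 and 638 CPM with DMSO and 528, 527 and 395 CPM with compound 33. The lowest and the highest of these values both belong to DMSO, and the groups overlap; the log2 fold change was 0.022 (adjusted p = 0.992, SE 0.28). Its partner Srp9 was far steadier across the DMSO libraries, at 78.5, 78.9 and 77.3 CPM, and stood at 78.9, 61.4 and 57.7 CPM with compound 33, where the estimate was -0.25 on the log2 scale. Srp19, the protein that prepares the particle's RNA for Srp54, stood at 277, 152 and 201 CPM with DMSO and 124, 159.6 and 159.6 CPM with compound 33. DMSO replicate 1 was high and compound 33 replicate 1 low, and DMSO replicate 2 lay among the treated libraries. The log2 fold change of -0.50 (adjusted p = 0.729, SE 0.24, 95% interval -1.03 to 0.021) was the most negative of the 40, and it ranged from -0.68 without DMSO replicate 2 (unadjusted p = 0.0125, adjusted p = 0.751 in edgeR) to -0.25 without DMSO replicate 1. Srp68 (-0.17) and Srp72 (-0.016), which bind each other on the particle, and the receptor gene Srpr (0.054) had smaller log2 fold changes. Srp19 lies on mm10 chromosome 18, plus strand, 34330847 to 34336599, and Srp14 on chromosome 2, minus strand, 118475850 to 118479711.

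The summed level of the channel genes was close between groups, with means of 1598 CPM with DMSO and 1592 CPM with compound 33. Each subunit varied between libraries of the same treatment. Sec61a1, the pore-forming subunit, stood at 958, 549 and 745 CPM with DMSO and 572, 697 and 1035 CPM with compound 33. The highest value came from compound 33 replicate 3 and the lowest from DMSO replicate 2, so the groups overlap throughout, with a log2 fold change of 0.033 (adjusted p = 0.989, SE 0.27, 95% interval -0.55 to 0.62). Sec61b, a small tail-anchored subunit, stood at 212, 427 and 292 CPM with DMSO and 249, 263 and 236 CPM with compound 33, with DMSO replicates 1 and 2 at the ends and the treated libraries between them. Its log2 fold change was -0.32 (adjusted p = 0.888, SE 0.25, 95% interval -0.85 to 0.22), and it ranged from -0.53 without DMSO replicate 1 (unadjusted p = 0.0301, adjusted p = 0.489 in edgeR) to -0.010 without DMSO replicate 2. In the Sec61 complex the protein subunits occur in equal number, which read counts of their transcripts do not measure. The ratio of Sec61b to Sec61a1 reads was 0.221, 0.778 and 0.392 with DMSO and 0.436, 0.377 and 0.228 with compound 33. The third subunit, Sec61g, had a narrower span, from 136 to 213 CPM over all libraries, and a log2 fold change of -0.21. Sec62 and Sec63, which assist import after translation and recruit the chaperone BiP, had log2 fold changes of 0.26 and 0.18, and the ratio of Sec62 to Sec63 reads was 1.76, 1.75 and 1.78 with DMSO and 1.47, 2.03 and 2.09 with compound 33. Sec61a1 lies on chromosome 6, minus strand, 88503579 to 88518905, and Gm44170, a gene on the opposite strand, has exons near its 3′ end; no source used here gives the strand setting of the counting, so reads of the pair cannot be told apart.

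TRAP, the translocon-associated complex that helps some signal sequences open the channel, had all 4 log2 fold changes below 0. Its most abundant gene was Ssr3, at 911, 663 and 741 CPM with DMSO and 732, 765 and 808 CPM with compound 33, for a log2 fold change of -0.0057 (adjusted p = 0.998, SE 0.21) with overlapping groups. Ssr4 was the member whose groups parted: 238, 239.5 and 224 CPM with DMSO and 203, 203 and 181 CPM with compound 33. Each treated library lay below each DMSO library, yet the log2 fold change was small, -0.26 (adjusted p = 0.876, SE 0.19), with an interval from -0.67 to 0.15. Ssr1 (479.9 ± 76.2 and 449 ± 8.64 CPM) and Ssr2 (212 ± 10.7 and 208 ± 40.9 CPM; mean ± SD, n = 3 per group) had log2 fold changes of -0.097 and -0.024. The estimates of Ssr2 and Ssr3 changed sign when single libraries were left out. On mm10, Ssr4 lies on chromosome X, plus strand, 73787028 to 73790830, and its exons overlap no other annotated gene.

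Signal peptidase, which trims the signal sequence on the inner face, had 4 of 5 estimates below 0 and the lowest median of the role groups, -0.36. Its catalytic subunits come as a pair of alternatives, Sec11a and Sec11c. Sec11c stood at 92.3, 81.6 and 76.9 CPM with DMSO and 55.0, 71.7 and 57.1 CPM with compound 33, with all treated libraries below all DMSO libraries, for a log2 fold change of -0.44 (adjusted p = 0.733, SE 0.22, 95% interval -0.91 to 0.022). Sec11a went from 102 CPM in DMSO replicate 1 to 182 CPM in DMSO replicate 3, and the treated libraries (167, 151 and 118 CPM) lay inside that span, with a log2 fold change of -0.067. Exons of Nmb on the same strand overlap those of Sec11a near its 3′ end, so its count is uncertain. Among the accessory subunits Spcs1 stood at 238, 377 and 290.0 CPM with DMSO and 249, 219.7 and 192 CPM with compound 33. DMSO replicate 2 was high, and DMSO replicate 1 lay among the treated libraries. The log2 fold change of Spcs1 was -0.46 (adjusted p = 0.738, SE 0.22, 95% interval -0.94 to 0.027). Spcs3, needed for catalysis, had the widest DMSO span of the group, 65.2, 195 and 119 CPM, and treated values of 117, 95.8 and 83.9 CPM, for -0.36 (adjusted p = 0.893, SE 0.33, 95% interval -1.06 to 0.35) on the log2 scale. Leaving out DMSO replicate 1, the library with the lowest Spcs3 value, gave log2 fold changes of -0.60 for Spcs1 (unadjusted p = 0.0147, adjusted p = 0.416) and -0.66 for Spcs3 (unadjusted p = 0.0188, adjusted p = 0.439) in edgeR. Leaving out DMSO replicate 2, the highest library for both, gave -0.26 for Spcs1 and 0.10 for Spcs3. Spcs2, the most abundant subunit over all libraries, stood at 202, 309 and 265 CPM with DMSO and 281, 235 and 361 CPM with compound 33 and was the only one with a positive estimate, 0.17 (adjusted p = 0.936, SE 0.23).

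None of the 5 genes grouped here as sensors, Xbp1 included though it encodes a factor that acts after IRE1, differed between groups beyond its spread. Xbp1, the factor whose messenger RNA is spliced by IRE1, was the most abundant of them and one of the steadiest of the 40, at 189, 221 and 234 CPM with DMSO and 224, 219 and 214 CPM with compound 33. The treated values all lie within the DMSO span, and the log2 fold change was 0.027 (adjusted p = 0.986, SE 0.19, 95% interval -0.39 to 0.44). Counts near the 3′ end add the spliced and unspliced forms of Xbp1, so the activity of IRE1 was not analysed here. Ern1, the gene of IRE1, had the lowest level of the sensors, at 18.0, 23.5 and 21.6 CPM with DMSO and 23.2, 19.5 and 18.5 CPM with compound 33, for a log2 fold change of -0.051 (adjusted p = 0.983, SE 0.26). Atf6, which is cut free in the Golgi to act on ERSE, stood at 36.6, 46.9 and 49.8 CPM with DMSO and 56.9, 44.8 and 35.5 CPM with compound 33, with a log2 fold change of 0.032 (adjusted p = 0.987, SE 0.25). Its relative Atf6b stood at 50.9, 103 and 128 CPM with DMSO and 113, 120.2 and 98.3 CPM with compound 33: DMSO replicate 1 was low and the other libraries close together, for a log2 fold change of 0.23 (adjusted p = 0.935, SE 0.29). Eif2ak3, the gene of PERK, the kinase that slows translation, was the least settled. It stood at 50.4, 19.4 and 51.5 CPM with DMSO and 29.3, 22.0 and 54.6 CPM with compound 33, with a low and a high library in both groups, and its log2 fold change of -0.20 (adjusted p = 0.956, SE 0.39, 95% interval -1.05 to 0.65) has the widest error of the sensors. On mm10, Xbp1 lies on chromosome 11, plus strand, 5520659 to 5525893, Ern1 on chromosome 11, minus strand, 106394650 to 106487852 and Atf6 on chromosome 1, minus strand, 170704674 to 170867771. Atf6b lies on chromosome 17, plus strand, 34647146 to 34655074, and Eif2ak3 on chromosome 6, plus strand, 70844515 to 70905245.

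Of the complex that pulls misfolded proteins back through the membrane, 4 of 5 tested genes had positive estimates of small size. Derl1, a derlin thought to thin the membrane for export, was the most abundant, at 351, 245 and 305 CPM with DMSO and 275, 249.99 and 259.9 CPM with compound 33, and had the only negative estimate, -0.20 (adjusted p = 0.913, SE 0.21). Herpud1, which organises the complex and is itself a standard target of the stress response, stood at 165, 169.6 and 180.0 CPM with DMSO and 179.7, 192 and 252 CPM with compound 33. The treated libraries began where the DMSO libraries ended, at 180 CPM, and compound 33 replicate 3 stood above the rest, giving a log2 fold change of 0.28 (adjusted p = 0.877, SE 0.21, 95% interval -0.17 to 0.72). Syvn1, the ubiquitin ligase, stood at 130.4, 151 and 188 CPM with DMSO and 204, 182 and 116 CPM with compound 33, with a log2 fold change of 0.093 (adjusted p = 0.964, SE 0.25). Exons of Mrpl49 on the opposite strand reach the 3′ end of Syvn1, so its reads are uncertain. Sel1l, the adaptor that holds Syvn1 (0.058), and Derl2 (0.15) overlapped between groups. The summed level of the complex was 972, 821 and 946 CPM with DMSO and 923, 935 and 956 CPM with compound 33, the treated sums falling inside the DMSO range.

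Among the proteins that read trimmed glycans, 3 of 4 estimates were negative, and the groups of Edem1 and Edem3 did not overlap. Edem1, the founding EDEM protein and a known XBP1 target, stood at 96.0, 94.3 and 96.1 CPM with DMSO and 86.2, 85.0 and 80.8 CPM with compound 33, so the groups do not overlap, but the log2 fold change was -0.18 (adjusted p = 0.918, SE 0.20, 95% interval -0.61 to 0.24). Edem3, which trims mannose, stood at 76.4, 69.0 and 77.6 CPM with DMSO and 58.7, 58.0 and 48.9 CPM with compound 33, again with every treated library lower, a log2 fold change of -0.43 (adjusted p = 0.733, SE 0.21, 95% interval -0.88 to 0.022). Os9, the lectin that passes clients to Sel1l, had a log2 fold change of -0.17, and Edem2, which starts mannose trimming, had 7.42 to 31.1 CPM among the DMSO libraries alone and an estimate of 0.12. Together these 4 genes summed to 231, 231 and 228 CPM with DMSO and 204, 205 and 180.2 CPM with compound 33, and these sums do not overlap. This sum was singled out after its values were seen and has no test. Edem1 lies on chromosome 6, plus strand, 108828641 to 108859356, and Edem3 on chromosome 1, plus strand, 151755371 to 151822051, neither with exons of another annotated gene.

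Extraction into the cytosol is driven by VCP with its cofactors Ufd1 and Nploc4; 1 estimate of the 3 was positive, and none passed. Vcp, the ATPase, stood at 415, 485 and 538 CPM with DMSO and 613, 578 and 596 CPM with compound 33. All treated libraries were above all DMSO libraries and closer to each other than the DMSO libraries were. The log2 fold change of 0.31 (adjusted p = 0.834, SE 0.20, 95% interval -0.12 to 0.75) was the most positive of the 40 and ran from 0.22 to 0.40 with each library left out in turn. Ufd1 stood at 104, 74.0 and 82.2 CPM with DMSO and 53.8, 51.0 and 90.6 CPM with compound 33: compound 33 replicates 1 and 2 lay below all DMSO libraries and replicate 3 among them, for a log2 fold change of -0.41 (adjusted p = 0.829, SE 0.26). Without compound 33 replicate 3 the estimate for Ufd1 was -0.72, with an unadjusted p of 0.0127 and an adjusted p of 0.773 in edgeR, and without compound 33 replicate 2 it was -0.25. Nploc4, which forms a pair with Ufd1 on VCP, had a log2 fold change of -0.053. Vcp lies on chromosome 4, minus strand, 42979963 to 43000507; exons of 1700022I11Rik on the opposite strand overlap it, though not in the last 500 bases of the gene.

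The lectins and Creld2 had 3 small positive estimates. Calr, calreticulin, was the most abundant gene of the 41, at 938, 1476 and 1432 CPM with DMSO and 1545, 1419 and 1354 CPM with compound 33. DMSO replicate 1 was low and the other 5 libraries lay between 1354 and 1545 CPM, with a log2 fold change of 0.17 (adjusted p = 0.936, SE 0.23, 95% interval -0.33 to 0.67). Canx, calnexin, its membrane-bound counterpart, stood at 659, 540.4 and 546 CPM with DMSO and 576, 578 and 764 CPM with compound 33, for a log2 fold change of 0.14 (adjusted p = 0.941, SE 0.21). Creld2, a small secreted ER protein and a sensitive marker of ATF6 activity, had 29.3 to 40.3 CPM with DMSO and 29.4 to 39.1 CPM with compound 33. Its log2 fold change was 0.079 (adjusted p = 0.968, SE 0.25). Calr lies on chromosome 8, minus strand, 84841850 to 84846934, and Canx on chromosome 11, minus strand, 50293961 to 50325673.

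**Figure D3:**
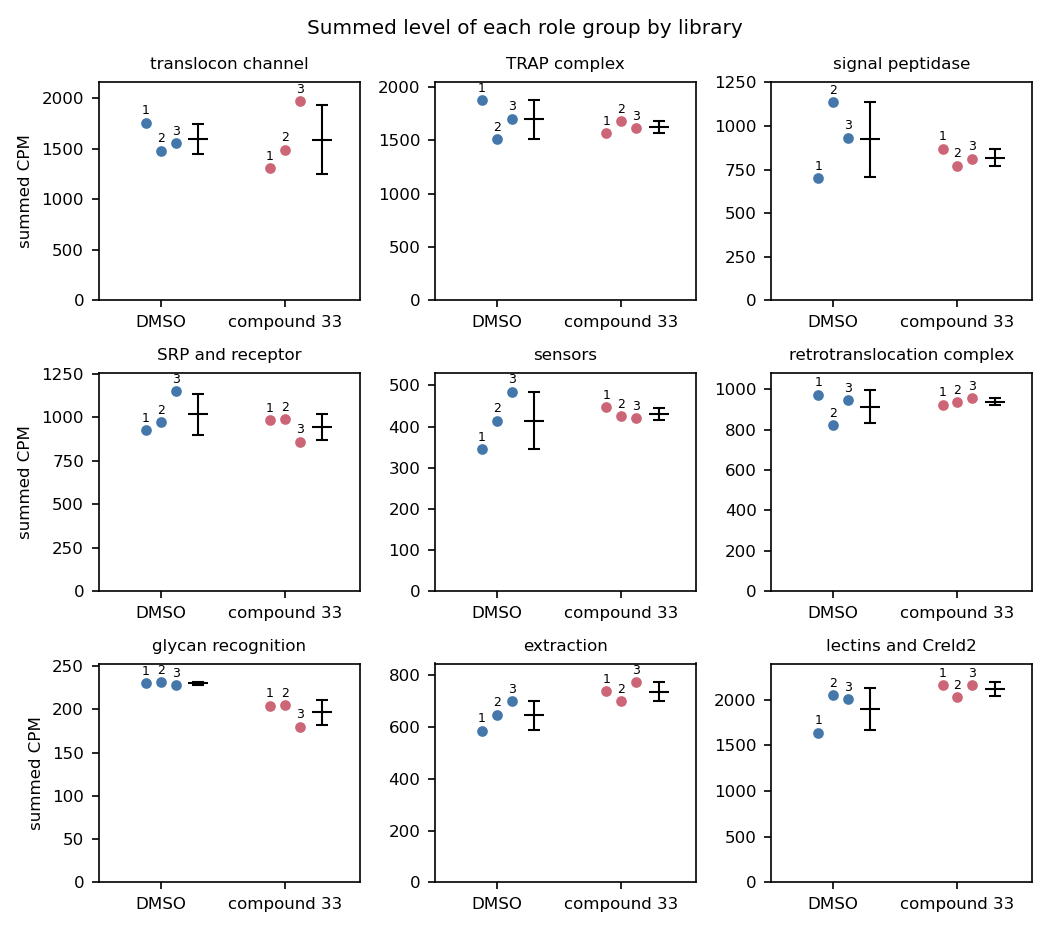
Summed CPM of each role group (vertical axes, from 0) in the DMSO (blue) and compound 33 (red) libraries, numbered by replicate, with black marks for mean ± SD of 3 libraries. Sums overlap between groups in all panels but glycan recognition; for extraction the lowest treated sum (700.2) lies just under the highest DMSO sum (701).

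Read against the elements printed above, the 6 tested genes with an ERSE, ERSE-II or UPRE all had positive estimates, where 18 of the 40 and 48.9% of all tested genes did. These were Vcp (0.31), Herpud1 (0.28), Calr (0.17), Canx (0.14), Syvn1 (0.093) and Creld2 (0.079), and none passed. Leaving out single libraries turned the sign of Calr, Canx, Syvn1 and Creld2 at least once and not that of Vcp or Herpud1. Among tested genes outside the list, with an ERSE 5 of 10 were positive (median 0.032), with an ERSE-II 1 of 7 (median -0.11) and with a UPRE 40 of 86 (median -0.015). The core CCACG was held by 4306 tested genes with a median of -0.014, and the 21 members among them had a median of 0.058.

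**Figure D4:**
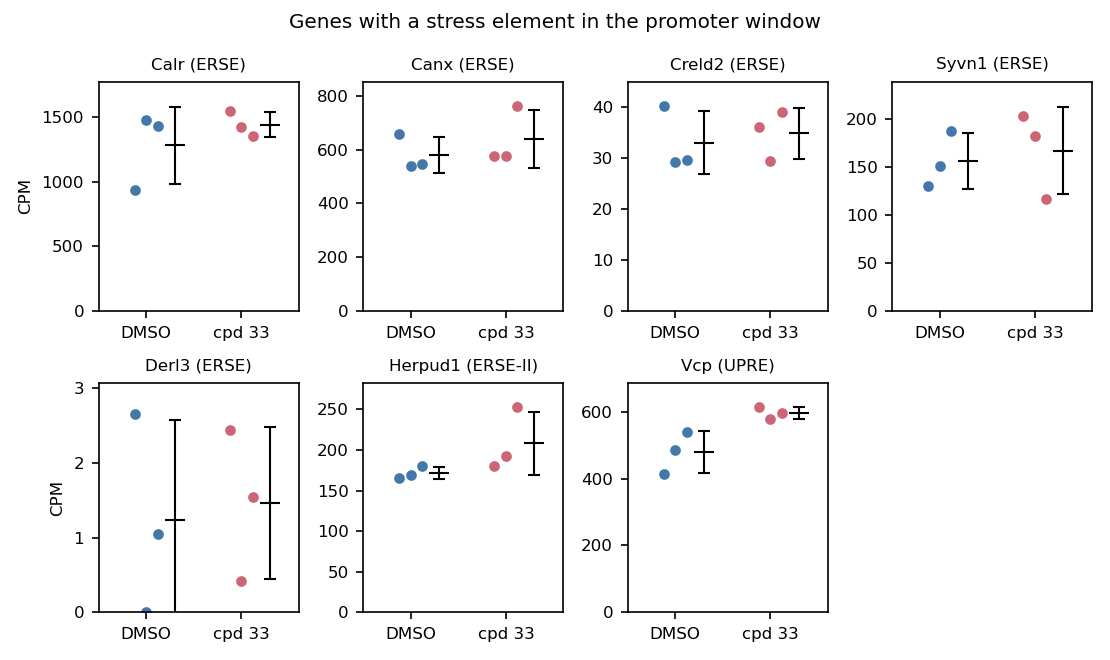
CPM (vertical axes, from 0) of the 7 genes whose promoter window holds an ERSE, ERSE-II or UPRE, by library in DMSO (blue) and compound 33 (red), with mean ± SD of 3 libraries in black; the Derl3 bar is clipped at 0. Vcp is the only one whose groups do not overlap, and Derl3 stays under 3 CPM.

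Much of the variation in these genes lay between libraries of the same group. In 33 of the 40 genes the span among the DMSO libraries, on the log2 scale, was wider than the estimated difference between groups. In 30 the span among the treated libraries was. A span of single libraries readily exceeds a small difference of group averages, and the share over all tested genes was not taken. These counts thus describe the members and mark no trait of theirs. The widest DMSO spans belonged to Edem2 (4.19-fold from the lowest to the highest library), Spcs3 (2.99-fold), Eif2ak3 (2.66-fold), Atf6b (2.52-fold), Srp14 (2.29-fold) and Sec61b (2.02-fold). Among these, DMSO replicate 1 was the lowest library for all but Eif2ak3. It was at an end of its group for 32 of the 40 genes (80.0%, against 76.7% of all tested genes), 14 times the highest and 18 times the lowest. Compound 33 replicate 3 was at an end of its group for 34 (85.0%, against 76.6%), 15 times the highest and 19 times the lowest. The median coefficient of variation of the members was 17.7% with DMSO and 13.3% with compound 33, against 22.3% and 19.7% over all tested genes.

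**Figure D5:**
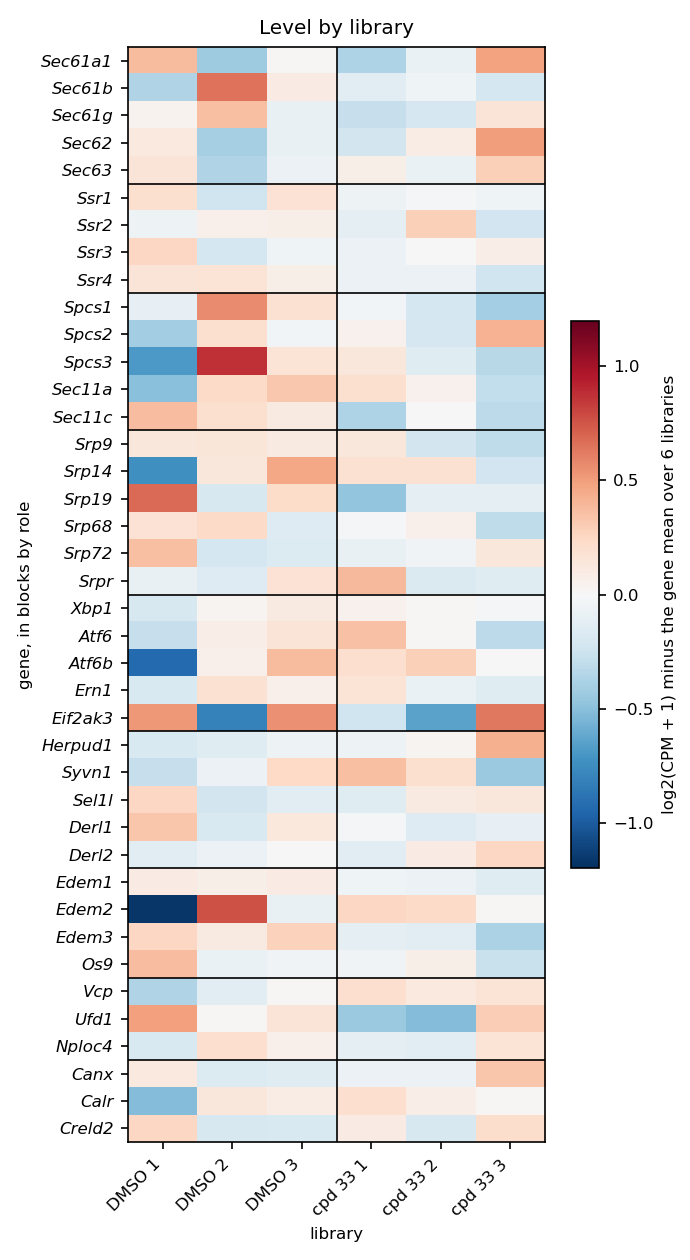
Level of each tested gene (rows, in blocks by role) in each library (columns), as log2(CPM + 1) minus the gene's mean over the 6 libraries; red is higher, blue lower. Strong colours sit in single libraries, such as DMSO replicates 1 and 2 for Spcs3 and Edem2, and not in whole groups.

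No gene of 3 further lists from the same pathways passed. Of 28 rows for other insertion genes (the EMC insertase, the GET route for tail-anchored proteins, Tram1 and others) 27 were tested, and 0 passed or lay under an unadjusted 0.05 (1 without DMSO replicate 1, without DMSO replicate 3 or without compound 33 replicate 1). Their median was -0.12, with 11 positive and 16 negative. Among 50 tested genes of degradation and glycan trimming 0 passed, and 5 (10.0%) lay under an unadjusted 0.05, 2 higher and 3 lower, against 6.87% of all genes. This count was 6, 5 and 4 without DMSO replicate 1, 2 or 3. Without compound 33 replicate 1, 2 or 3 it was 3, 2 and 1. The share over all genes was 9.17%, 5.91%, 5.73%, 5.50%, 5.33% and 5.61% in the same order. Higher was Uggt1, the folding sensor that puts glucose back on unfolded glycoproteins so that calnexin binds them again, at 497, 539 and 629.8 CPM with DMSO and 637, 801 and 1169 CPM with compound 33. All treated libraries of Uggt1 were above all DMSO libraries, for a log2 fold change of 0.65 (adjusted p = 0.674, SE 0.25). The other was Ganab, the catalytic subunit of glucosidase II, which releases glycoproteins from calnexin, at 65.8, 125 and 141 CPM with DMSO and 156, 183 and 156 CPM with compound 33, where the log2 fold change was 0.57 (adjusted p = 0.720, SE 0.27). It is named because it completes the count, after its values were seen. Lower was Ngly1, the cytosolic enzyme that strips glycans from exported proteins, at 19.6, 18.9 and 24.4 CPM with DMSO and 12.8, 12.4 and 13.4 CPM with compound 33, with groups apart and a log2 fold change of -0.71 (adjusted p = 0.686, SE 0.28). Also lower were the membrane ligase Rnf5, at -1.07 (adjusted p = 0.686, SE 0.42) on the log2 scale, and the Golgi mannosidase Man1a, at -0.98 (adjusted p = 0.697, SE 0.40). Groups overlapped for Rnf5 and Man1a, where DMSO replicate 2 was high (78.9 and 134 CPM). Exons of Gm20463 on the opposite strand reach the 3′ end of Rnf5, so its count is uncertain.

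In the third list, genes of sensor processing and sensor outputs, 0 of 27 tested genes passed. The only one (3.70%, against 6.87% of all genes) under an unadjusted 0.05 was Ddit3. It is the gene of CHOP, a factor induced through PERK and ATF4. It stood at 103, 67.7 and 112 CPM with DMSO and 136, 136 and 191 CPM with compound 33, all treated libraries higher, with a log2 fold change of 0.71 (adjusted p = 0.599, SE 0.25). Atf4 itself (0.26), the phosphatase subunit Ppp1r15a (-0.17) and Dnajc3, an inhibitor of PERK (-0.0061), overlapped between groups. For Ddit3 the unadjusted p was 0.0507 without DMSO replicate 2 and 0.0542 without compound 33 replicate 3, with log2 fold changes of 0.53 and 0.54. With DMSO replicate 2 left out 0 genes of the list lay under 0.05, against 5.91% of all genes. With DMSO replicate 1 or DMSO replicate 3 left out there were 2 of 27, against 9.17% and 5.73% of all genes. With compound 33 replicate 3 left out there was 1, a gene with a negative estimate, against 5.61% of all genes. The proteases Mbtps1 and Mbtps2, which release ATF6, had log2 fold changes of 0.064 and 0.056.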

How the data were processed

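RNA of 6 samples was read with a 3′ mRNA kit on an Ion Proton instrument, per the labels' protocols. Alignment to mm10 and counting involved HISAT2 2.2.1 and featureCounts 2.0.3, and FastQC 0.11.9 and DESeq2 are named too, all per the submitters' processing notes. No source used here gives the annotation or strand setting. The authors deposited raw counts per gene symbol and a table of their own comparison. In that deposited table the mean normalized count is a signal, fold changes and errors are log2 values, the Wald statistic is a score, and p-values and adjusted p-values follow.

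Counts were fitted in R 4.3.3 with edgeR 4.0.16 (filterByExpr with a minimum count of 10, TMM scaling, robust quasi-likelihood F test, two-sided) on the 6 libraries, with treatment as sole factor. P-values were adjusted by Benjamini-Hochberg over the 10124 genes tested, threshold 0.05. The SE is the unshrunk log2 fold change over the square root of F. The fit was run on data simulated with the same spread for every gene, a simpler setting than these libraries, and no result here rests on it. Alternatives were other scalings and filters, no robust estimation, DESeq2 1.42.0, limma-voom (limma 3.58.1), a replicate block and each library left out. Gene positions are GENCODE M21 on mm10. Genes named with values in every library were those with groups that did not overlap or an unadjusted p under 0.05, the sensors and the most abundant gene of each role, with up to 4 per related list; the values given for other genes were chosen after they were seen. The members and lists were chosen with earlier results of these data known.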

Additional observations from a re-analysis of the deposited data

How the results depend on the processing

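With 3 libraries per group and 1 read worth up to 0.611 CPM, small differences may have been missed. The size of difference that could be detected was not tested. Under all 15 alternatives 0 members passed at an adjusted p under 0.05, and the smallest adjusted p of any member was 0.416. At an unadjusted 0.05 the count was 1 on library totals only (2.5%, against 6.67% of all genes). It was 1 without a low-count filter (2.44%, against 6.24%), Srp19 both times. With each library left out it ran from 0 to 3. The 3 arose without DMSO replicate 1 (7.5%, against 9.17% of all genes). The median log2 fold change ran from -0.080 to 0.0040 with each library left out. With scalings and filters the median stayed between -0.028 and -0.012. The count of genes whose groups do not overlap ran from 7 to 11 with each library left out. The share over all genes was then 21.2% to 27.0%. Estimates near 0 changed sign: Ssr3 was 0.0050 in limma-voom and 0.0060 with the replicate block, and Srp72 0.0074 and 0.0056. The labels do not say whether equal replicate numbers pair the samples. Deviations of same-numbered libraries correlated at -0.030, 0.21 and 0.077, and those of other pairs at -0.23 to 0.15. With 3 libraries per group these values cannot decide whether the samples are paired. With the replicate block 0 members passed, as under the other alternatives. With each library left out, 20 genes changed sign at least once, and their log2 fold changes ran as follows: Atf6 -0.15 to 0.19, Atf6b -0.065 to 0.52, Calr -0.013 to 0.29, Canx -0.0034 to 0.24, Creld2 -0.0066 to 0.24, Edem2 -0.23 to 0.70, Eif2ak3 -0.66 to 0.064, Ern1 -0.15 to 0.038, Nploc4 -0.15 to 0.045, Sec11a -0.28 to 0.085, Sec61a1 -0.23 to 0.25, Sel1l -0.027 to 0.22, Spcs3 -0.66 to 0.10, Srp14 -0.25 to 0.29, Srp72 -0.11 to 0.19, Srpr -0.15 to 0.17, Ssr2 -0.19 to 0.084, Ssr3 -0.096 to 0.13, Syvn1 -0.071 to 0.30 and Xbp1 -0.055 to 0.092. Over all tested genes the count at an adjusted p under 0.05 was 3, against 21 without a low-count filter, 18 in DESeq2, 7 with the replicate block and 1 to 7 with a library left out. The cause was not tested.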

Other observations

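Outside the 41 genes, 10 tested genes held an ERSE in their promoter window. They include the ER chaperones Hspa5 (BiP, log2 fold change 0.29), Hsp90b1 (0.20) and Pdia6 (-0.18), and Dnajc3 (-0.0061). The only one under an unadjusted 0.05 was Spats2l, at 24.3 and 11.2 CPM on average, with all treated libraries lower and a log2 fold change of -1.13 (adjusted p = 0.401 in edgeR, SE 0.28). These genes were named after their values were seen.

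Rows named Srp54 and Srp54b stand in the count table beside the missing Srp54a. Their levels were 28.6, 30.7 and 40.4 CPM with DMSO and 35.5, 31.5 and 36.5 CPM with compound 33 for Srp54, and 21.7, 22.6 and 27.5 and 31.2, 26.9 and 20.1 CPM for Srp54b. The Srp54 copies of the mouse genome are close relatives, and both values are uncertain because the counting of shared reads was not analysed here.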
